A study of Tribolium castaneum with 6 samples.

Results

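Adipokinetic hormones (AKHs) are short peptides that insects release from the corpora cardiaca, a neurosecretory gland attached to the brain. They bind the AKH receptor, a G protein-coupled receptor best known from the fat body, where its signal runs through cyclic AMP and calcium and leads to the breakdown of stored triglyceride and glycogen. In this way the AKH system opposes insulin, and it is a main route by which an insect draws on its reserves. The genes described here are the hormone genes Akh1 and Akh2 and the receptor gene Akhr of the red flour beetle Tribolium castaneum. They were taken by name, as the rows that carry one of these 3 gene names in the transcript tables. These rows are 7 of 31944 transcripts and 3 of 15099 genes.

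The RNA-Seq data comprise 6 libraries from GA-1 strain larvae, 3 from the dsEGFP group and 3 from the dsTcAMPKα group. Every larva was injected at an age of 20 days with about 200 ng of double-stranded RNA, either against EGFP, which encodes a fluorescent protein and has no target in the beetle, or against TcAMPKα, the catalytic subunit of the energy sensor AMP-activated protein kinase. For each library 10 unsexed whole larvae were pooled 6 days after injection, and no uninjected larvae were used here. The comparison asks how the transcripts of the AKH system differed between larvae with less TcAMPKα and their injected controls. In whole larvae, fewer cells of a type and less RNA per cell cannot be told apart, and a gene of a small gland is diluted by all other tissues.

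The unit is FPKM, a number of fragments scaled by transcript length and by the mapped total of the library, added up over the transcripts of a gene. Values of 3 libraries are given in the order of their replicate numbers. A gene was called where its log2 fold change in limma, on log2(FPKM + 1), exceeded 1 in size with a Benjamini-Hochberg adjusted p below 0.05. Fold changes are dsTcAMPKα minus dsEGFP, and on this scale the change of a gene with low FPKM is understated. Reads estimated from coverage came to between 33518139 and 37584930 per library. The targeted gene, listed as Snf1a, fell from 69.7 ± 11.1 FPKM in the dsEGFP group to 11.4 ± 4.51 FPKM in the dsTcAMPKα group (SD, n = 3; log2 fold change −2.56, limma adjusted p = 0.0164). The median log2 fold change of the 10981 tested genes was 0.20, not 0, and fold changes were more positive in longer transcripts (Spearman's rho 0.636, a description across the tested genes). The dsEGFP replicate 3 stood apart, with correlations of log2 values of 0.905 to 0.907 to the other dsEGFP libraries where pairs within a group reached 0.98, so values that rest on it are also given without it.

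None of the 3 genes passed both thresholds, against 6.80% of all tested genes. Akh1 was lower and Akhr was higher in every dsTcAMPKα library than in every dsEGFP library, and the Akh2 groups overlapped. Within a library the receptor had the highest level per length, Akh2 the next and Akh1 the lowest, in all 6 libraries. Of the tested genes, 18.1% had a mean FPKM below that of Akh1, 46.4% below that of Akh2 and 82.9% below that of Akhr.

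**Figure D1:**
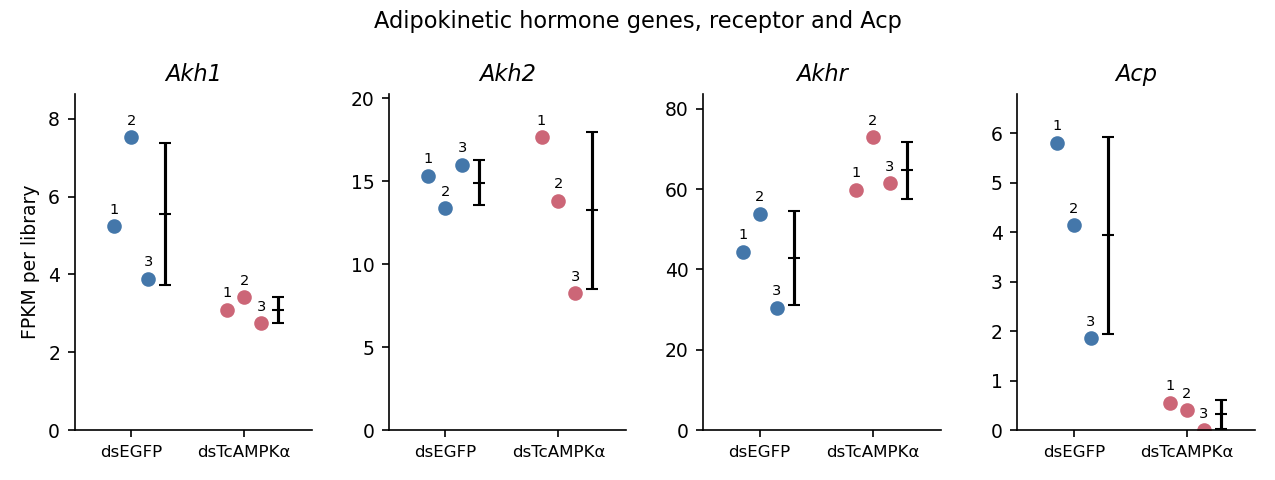
FPKM per library of Akh1, Akh2, Akhr and the related peptide gene Acp, in 1 panel each with its own vertical axis starting at 0. Points are libraries with their replicate number, and the bars give the mean ± SD of the 3 libraries of a group. The groups are apart for Akh1 and Acp (lower in dsTcAMPKα) and for Akhr (higher), and they overlap for Akh2.

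Akh1 encodes the precursor of 1 of the 2 AKH peptides. It lies on the minus strand of sequence NC_007416.3 of the Tcas5.2 genome, from 2143627 to 2144298. Its level was 5.24, 7.52 and 3.89 FPKM in dsEGFP replicates 1, 2 and 3, and 3.09, 3.41 and 2.74 FPKM in dsTcAMPKα replicates 1, 2 and 3. The lowest dsEGFP library, replicate 3, was still above the highest dsTcAMPKα library, replicate 2. The means were 5.55 ± 1.83 and 3.08 ± 0.334 FPKM (SD, n = 3), a ratio of 0.555. With limma the log2 fold change was −0.65 ± 0.24 (SE), with a 95% interval from −1.23 to −0.07 and an adjusted p of 0.105, which does not pass. Relative to the median of all tested genes it was −0.85. Every dsTcAMPKα library was below every dsEGFP library in 13.6% of the tested genes, so this order is not rare. Without dsEGFP replicate 3 the log2 fold change was −0.84, and its adjusted p of 0.0244 was under 0.05 while the fold remained under the threshold.

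Few reads stand behind these levels. The estimate for Akh1 was 122, 115 and 90 reads in the 3 dsEGFP libraries, against 74, 54 and 58 reads in the 3 dsTcAMPKα libraries. Read estimates thus kept the groups apart as well.

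The Akh1 rows hold 2 overlapping transcripts. The annotated one has 1 exon of 432 nt, from 2143627 to 2144058. The other was assembled by the authors from the reads, has 2 exons and 626 nt, ends at the same base and reaches 240 bases further upstream. Library by library, nearly all of the FPKM went to one or the other. The assembled transcript held 98.1%, 0.976% and 87.8% of the gene's FPKM in dsEGFP replicates 1, 2 and 3, and 97.0%, 3.31% and 95.5% in dsTcAMPKα replicates 1, 2 and 3. Replicate 2 of either group was therefore the exception, with the annotated transcript at 7.45 FPKM in dsEGFP replicate 2 and 3.30 FPKM in dsTcAMPKα replicate 2. In the other 4 libraries the annotated transcript lay between 0.0928 and 0.474 FPKM. Neither transcript alone was called, and both overlapped between the groups (log2 fold change −0.46 with limma adjusted p = 0.776 for the annotated one, and −0.29 with adjusted p = 0.843 for the assembled one).

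This assignment enters the gene's FPKM, because the same reads divided by a transcript 1.45 times shorter give a higher value. When all Akh1 reads were divided by the longer length, the levels were 5.21, 5.21 and 3.75 FPKM in the 3 dsEGFP libraries, against 3.06, 2.39 and 2.70 FPKM in the 3 dsTcAMPKα libraries. The groups stayed apart, and dsEGFP replicates 1 and 2 were then level. On this scale the log2 fold change was −0.62 with a limma adjusted p of 0.0667.

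**Figure D2:**
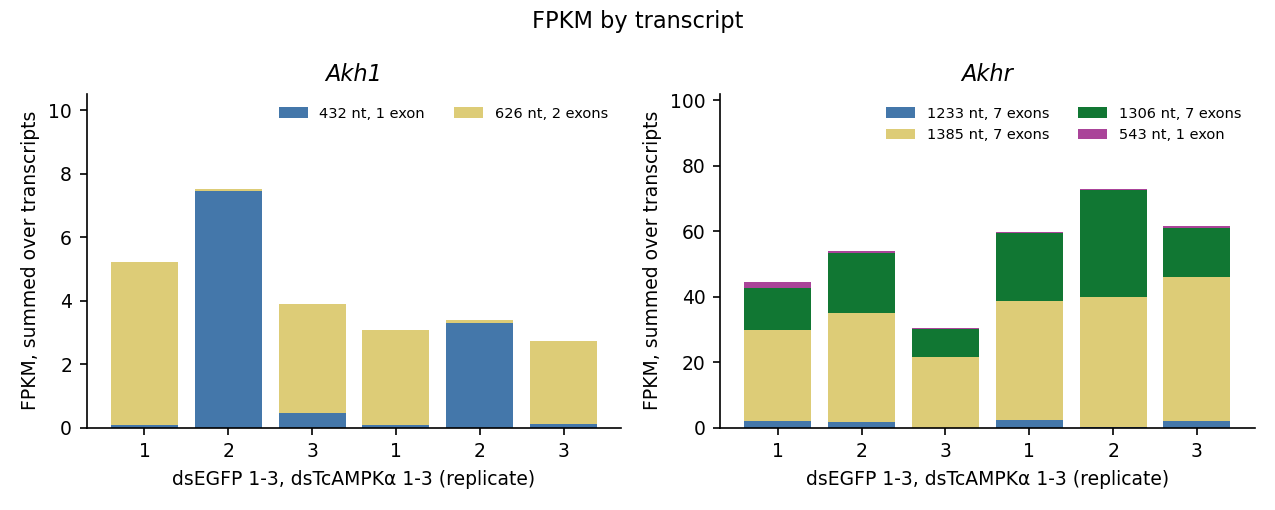
FPKM by transcript for Akh1 (left) and Akhr (right) in the 6 libraries, as stacked bars that start at 0, with the colours giving transcript length and exon number. The Akh1 bar is almost all 626 nt transcript in 4 libraries and almost all 432 nt transcript in replicate 2 of both groups, while in Akhr the 1385 nt transcript is the largest part of every bar.

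Akh2 encodes the other AKH precursor. Its 1 transcript has 2 exons and 306 nt on the minus strand of NC_007420.3, from 13480285 to 13480639. The gene stood at 15.3, 13.4 and 16.0 FPKM in the 3 dsEGFP libraries, against 17.6, 13.8 and 8.25 FPKM in the 3 dsTcAMPKα libraries. Both the highest and the lowest library were from the dsTcAMPKα group, so the groups overlapped. Means were 14.9 ± 1.35 and 13.2 ± 4.72 FPKM (SD, n = 3), and estimated reads ranged from 87 in dsTcAMPKα replicate 3 to 208 in dsTcAMPKα replicate 1. The log2 fold change was −0.21 ± 0.27 (SE), with a 95% interval from −0.86 to 0.43 and a limma adjusted p of 0.602. This interval leaves room for a difference in either direction. The sign rested on dsTcAMPKα replicate 3, since without it the log2 fold change was 0.07.

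Akhr encodes the receptor. Its 3 spliced transcripts lie on the plus strand of NC_007422.5, have 7 exons each and together span 21194 nt. Levels were 44.4, 53.8 and 30.4 FPKM in the 3 dsEGFP libraries, against 59.8, 72.9 and 61.5 FPKM in the 3 dsTcAMPKα libraries. All 3 dsTcAMPKα libraries were above the highest control, and the lowest control was dsEGFP replicate 3. The mean was 42.9 ± 11.8 FPKM in the dsEGFP group and 64.7 ± 7.12 FPKM in the dsTcAMPKα group (SD, n = 3), a ratio of 1.51, and it rested on 1577 to 3542 estimated reads per library. The log2 fold change of 0.61 ± 0.23 (SE) had a 95% interval from 0.07 to 1.16 and a limma adjusted p of 0.107, which does not pass. Relative to the median of all tested genes it was 0.42. An order with every dsTcAMPKα library on top was found in 31.2% of the tested genes. Without dsEGFP replicate 3 the log2 fold change was 0.39 with a limma adjusted p of 0.0901.

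Most of the receptor's FPKM came from 2 transcripts with different starts. The longest, of 1385 nt from 7995419 to 8016340, stood at 27.8, 33.0 and 21.6 FPKM in the 3 dsEGFP libraries, against 36.3, 39.5 and 44.0 FPKM in the 3 dsTcAMPKα libraries. Its groups did not overlap, an order found in 31.2% of the tested genes and not counted over transcripts. The transcript made up between 54.2% and 71.6% of the gene. Limma on transcripts gave it a log2 fold change of 0.54 ± 0.20 (SE) and an adjusted p of 0.151. The transcript of 1306 nt, which starts downstream at 7998600 and ends at 8016233, stood at 13.0, 18.3 and 8.60 FPKM in the 3 dsEGFP libraries, against 20.8, 32.7 and 14.7 FPKM in the 3 dsTcAMPKα libraries. These overlapped, as dsTcAMPKα replicate 3 lay among the controls, and the log2 fold change was 0.72 ± 0.37 (SE) with an adjusted p of 0.263. No transcript of the 3 genes was called, against 2.56% of the 18283 transcripts tested.

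The use of the starts was compared as the ratio of the 1306 nt to the 1385 nt transcript. It was 0.466, 0.554 and 0.399 in the 3 dsEGFP libraries, against 0.574, 0.827 and 0.334 in the 3 dsTcAMPKα libraries, with the highest and the lowest value both in the dsTcAMPKα group. The log2 difference was 0.21 (two-sided exact permutation p = 0.6, where the smallest possible is 0.1). A shift between the starts was not detectable with 3 libraries per group. The third spliced transcript, of 1233 nt from 7995147 to 8016233, was minor, at 0 to 2.37 FPKM, and was listed at 0 in dsEGFP replicate 3.

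The fourth Akhr row is a single exon of 543 nt with no strand, from 8018124 to 8018666, which begins 1783 nt after the last base of the spliced transcripts. It held 0.289 to 1.62 FPKM and 6 to 33 estimated reads, under the filter on low values. Its strand is unknown, and whether it belongs to Akhr cannot be settled from the values used here. Leaving assembled transcripts out did not turn the direction of Akhr.

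Levels of the 3 genes were then set against each other within each library, where scaling by the library total cancels. The trend with transcript length does not cancel between genes of unlike length. Akh1 to Akhr was 0.118, 0.140 and 0.128 in the 3 dsEGFP libraries, against 0.0516, 0.0468 and 0.0446 in the 3 dsTcAMPKα libraries. In the FPKM as listed this ratio varied little within a group, and the groups lay far apart compared with that spread. The small spread depends on how the Akh1 reads were assigned to its transcripts. With one length per gene, Akh1 over Akhr was 3.06 over 58.2 FPKM in dsTcAMPKα replicate 1. In dsTcAMPKα replicate 2 it was 2.39 over 70.8 FPKM, a wider spread, and the log2 difference between the groups was −1.42. As listed, the means of the ratio were 0.129 ± 0.0109 and 0.0477 ± 0.00359 (SD, n = 3). The geometric mean in the dsTcAMPKα group was 0.371 times that in the dsEGFP group, a log2 difference of −1.43. The two-sided exact permutation p of 0.1 is the smallest that 3 libraries against 3 can give, so this comparison cannot pass 0.05. A ratio shows an unequal difference of the genes between the groups, and not which of them differed. Without dsEGFP replicate 3 the log2 difference was again −1.43.

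Ratios that involve Akh2 were more variable. Akh2 to Akhr was 0.345, 0.249 and 0.525 in the 3 dsEGFP libraries, against 0.295, 0.190 and 0.134 in the 3 dsTcAMPKα libraries, with overlap (log2 difference −0.86, exact permutation p = 0.2). Akh1 to Akh2 was 0.342, 0.562 and 0.244 against 0.175, 0.247 and 0.332, also with overlap (log2 difference −0.57, exact permutation p = 0.3). The sum of both hormones over the receptor was 0.463, 0.388 and 0.653 in the 3 dsEGFP libraries, against 0.346, 0.236 and 0.179 in the 3 dsTcAMPKα libraries. All dsTcAMPKα libraries were lower, with a log2 difference of −1.0 at the smallest exact permutation p of 0.1. The 4 ratios among the genes were tested without adjustment, and none could pass.

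Because of this length trend, each gene was also read against the 500 tested genes nearest to it in the length of the most abundant transcript. The median length of all tested genes was 1556 nt, so both hormone genes are short and the receptor is near the middle. The neighbours of Akh1, of 571 to 686 nt, centred on a log2 fold change of −0.45, with quartiles of −0.73 and −0.13, so Akh1 lay within the middle part of them and 0.20 below their median. In 42.8% of those neighbours every dsTcAMPKα library was below every dsEGFP library. Among genes of its own length, the order seen in Akh1 was thus common.

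Akh2 was 0.43 above the median of −0.64 of its neighbours of 196 to 484 nt, of which 21.4% were called. It lay within their quartiles of −1.40 and 0.15. The neighbours of Akhr, of 1332 to 1440 nt, had a median of 0.10 with quartiles of −0.11 and 0.33. Akhr was 0.51 above that median, and 93% of its neighbours had a lower fold change. In 12.0% of them the dsTcAMPKα libraries were all above the controls, and 2% were called. So Akh1 was near the typical value for its length, and Akhr was in the upper part of its own.

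With the length trend removed from each library, the log2 fold changes were −0.23 for Akh1 (limma adjusted p = 0.675), 0.44 for Akh2 (0.46) and 0.51 for Akhr (0.409). Akh2 turned its sign. The difference between the Akh1 and Akhr fold changes went from −1.26 to −0.74. The part of the length trend in the levels of the 3 genes is given by these values, and its source was not tested.

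**Figure D3:**
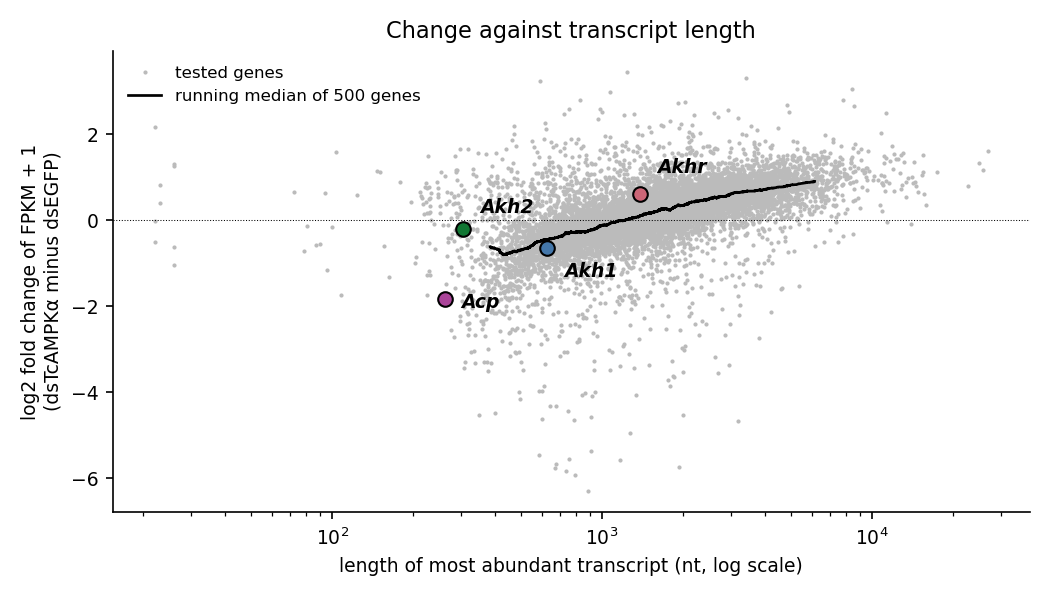
Log2 fold change of FPKM + 1 (dsTcAMPKα minus dsEGFP) against the length of the most abundant transcript in nt on a log axis, for 10981 tested genes (grey) with a running median over 500 genes (black line). Akh1 at 626 nt sits 0.20 below the median of its length neighbours, Akh2 at 306 nt sits 0.43 above and Akhr at 1385 nt sits 0.51 above.

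The closest relative of the hormones in the tables is Acp, the AKH/corazonin-related peptide, which the RefSeq gene table also lists under the name Akh3. This peptide is related in sequence to AKH and has its own receptor in insects. The gene has 3 exons and 261 nt on the plus strand of the unplaced sequence NW_015450689.1, from 88456 to 88854. Acp had 5.80, 4.14 and 1.86 FPKM in the 3 dsEGFP libraries, against 0.556, 0.399 and 0 FPKM in the 3 dsTcAMPKα libraries. All 3 dsTcAMPKα libraries were lower, and dsTcAMPKα replicate 3 was listed at 0. It fell from 3.93 ± 1.98 to 0.319 ± 0.287 FPKM (SD, n = 3), with a log2 fold change of −1.84 ± 0.37 (SE) and a limma adjusted p of 0.0291. Of all tested genes 2.71% were called lower.

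The reads behind Acp were few, 57, 38 and 19 in the 3 dsEGFP libraries, against 6, 4 and 0 in the 3 dsTcAMPKα libraries. Its call was lost with the length correction (log2 fold change −1.16, limma adjusted p = 0.13) and when any library other than dsEGFP replicate 3 was left out (adjusted p from 0.0552 to 0.104). Those fits called fewer genes of any kind. They called 703 without dsEGFP replicate 1, 77 without dsEGFP replicate 2, 34 without dsTcAMPKα replicate 3 and 0 without dsTcAMPKα replicate 1 or 2. Through them the log2 fold change of Acp stayed between −1.97 and −1.56. In limma on transcripts, the 1 transcript of Acp had the same log2 fold change of −1.84. Its adjusted p was 0.0608 there, so it was not called. Of the 500 length neighbours of Acp 21.8% were called and 12.0% had a lower fold change.

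Peptide hormone genes with a symbol were described as a list of 25 symbols, of which 8 were in the tables and tested. None was called higher and 1, Acp, was called lower. Besides Akh1, Akh2 and Acp these were the 2 bursicon subunits (Bursa, Bursb), which act in cuticle tanning, the glycoprotein hormone subunits Gpa2 and gpb5, and the ion transport peptide Itp. The median log2 fold change was −0.35, against 0.20 over all genes tested, and 7 of the 8 were below 0. Their median length was 459 nt. After the length correction 3 of 8 were below 0 and the median was 0.20, so the sign of this list turned. In the study's gene ontology annotation, 8 tested genes carried the term hormone activity, of which Acp was the only one called, with a median of −0.08.

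Receptors of peptide hormones with a symbol numbered 9 in the tables, of which 8 passed the filter and none was called in either direction. Akhr was the most abundant of them. Its fold change lay above the list's median of 0.39, and 6 of the 8 were above 0. Without dsEGFP replicate 3 the list's median was 0.215, against 0.246 over all tested genes, again with 6 of the 8 above 0. Genes with the term neuropeptide signaling numbered 30, of which 22 were tested, with 11 above and 11 below 0, a median of 0.01 and 1 called lower. With the length correction the medians were 0.22 for the receptors, with 5 of 8 above 0, and −0.14 for the signaling term. The called gene of the term, LOC103314359, fell from 2.91, 4.93 and 20.9 FPKM in the 3 dsEGFP libraries to 0.245, 0.231 and 0.243 FPKM in the 3 dsTcAMPKα libraries (log2 fold change −2.69, limma adjusted p = 0.0349). With the length correction its adjusted p was 0.0955.

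Downstream of the receptor, cyclic AMP synthesis was represented by 5 tested genes of 6. None was called and their median log2 fold change was 0.88. The glycogen terms had 9 tested genes of 10, with none called higher, 1 called lower and a median of 0.39. With the length correction 8 of the 9 glycogen genes were below 0, where 8 had been above it, and the median was −0.11, while the cyclic AMP median was 0.38. The called gene, LOC103312150, had 35.8, 34.4 and 23.3 FPKM in the 3 dsEGFP libraries, against 12.7, 16.4 and 13.8 FPKM in the 3 dsTcAMPKα libraries (log2 fold change −1.05, limma adjusted p = 0.0291). It is a short gene of 420 nt, and with the length correction the change was −0.48 with an adjusted p of 0.256.

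All 9 genes of the lipid storage terms were tested, none was called, and the median was 0.50 with 8 above 0. After the length correction the median of these 9 was 0.13, with 5 above 0. The lipid breakdown term, whose process AKH drives in fat body, had 21 tested genes of 28 in the tables, with none called higher, 1 called lower and a median of 0.38. Without dsEGFP replicate 3 the median of this term was 0.09, against 0.25 over all tested genes. The sign of the term turned with the length correction as well, to a median of −0.09 with 12 of 21 below 0. The gene called lower, LOC656585, had 6.57 to 21.6 FPKM in the 3 dsEGFP libraries, against 0.868 to 1.98 FPKM in the 3 dsTcAMPKα libraries (log2 fold change −2.40, limma adjusted p = 0.0247). It has a long transcript of 2969 nt and was called with the length correction too (−2.98, adjusted p = 0.0298). Across these lists no gene was called higher, while 4.09% of all tested genes were. With TPM scaling, which called 1400 of all 10981 tested genes higher, some of the lists did have such genes. They were 2 of the neuropeptide signaling term, 1 of the cyclic AMP term and 1 of the lipid storage terms. Without dsEGFP replicate 3, however, 1 gene each of the neuropeptide signaling, cyclic AMP and lipid breakdown terms was called higher, and 2 peptide hormone genes and 2 neuropeptide signaling genes were called lower. A list of 9 tested genes of the larval-pupal transition had none called and a median of 0.01. Its median was −0.36 with the length correction, and without dsEGFP replicate 3 it had 1 gene called higher and 1 called lower. With TPM scaling this list had 1 gene called higher.

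**Figure D4:**
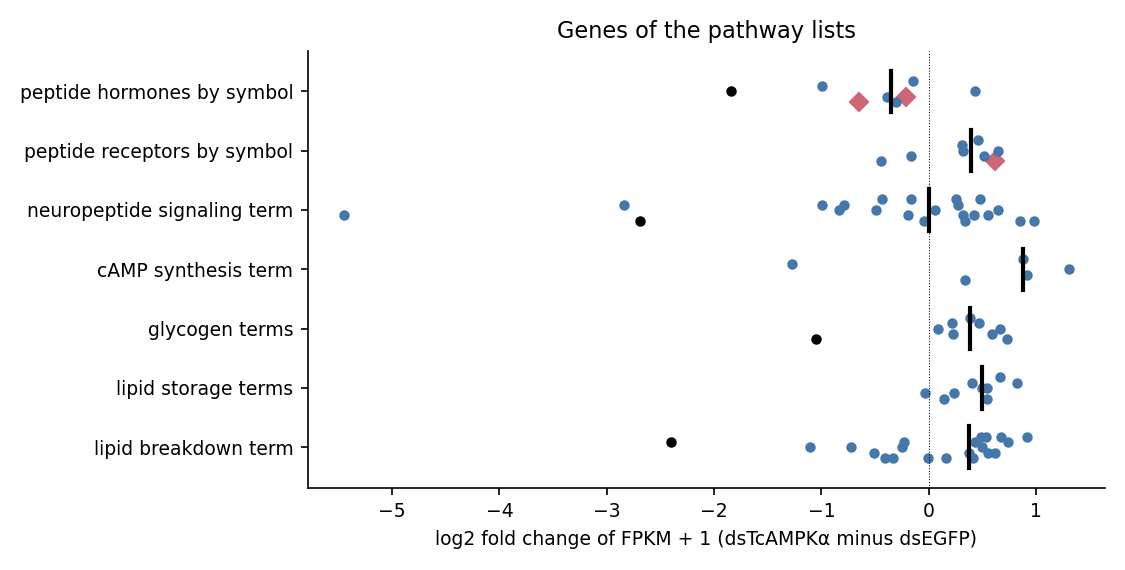
Log2 fold change of FPKM + 1 (dsTcAMPKα minus dsEGFP) for the tested genes of 7 lists, 1 point per gene, with the list median as a vertical bar. Red diamonds are Akh1, Akh2 and Akhr, and black points are the called genes, all of which lie below 0.

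Genes whose levels followed those of the AKH genes were ranked by the Pearson correlation of log2(FPKM + 1) over the 6 libraries, among tested genes with a symbol. With 6 points that share group and library, these values describe and do not test. For Akh1 the summed FPKM was used, in which dsEGFP replicate 2 was highest at 7.52. With one length, dsEGFP replicates 1 and 2 were level at 5.21 FPKM, and correlations on that scale were not computed. Closest to the summed Akh1 values were Rpl39 (r = 0.983), Cox7c (0.98) and Rpl41 (0.98). These are genes of 2 ribosomal proteins and of a cytochrome c oxidase subunit. All 3 are short, at 225, 370 and 298 nt, and like Akh1 they were lower in every dsTcAMPKα library without being called. Among those close to Akhr were the microRNA gene Mir3831 (r = 0.975) and the nuclear receptor gene Err (0.948). Both were higher in every dsTcAMPKα library and not called. Mir3831 is listed at 26 nt, shorter than a read of 150 nt, and held only 0 to 5.58 FPKM.

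Akh2 had no neighbour as close. Its highest correlations were with the antimicrobial peptide gene cec2 (r = 0.811), Jtb (0.747) and Tcjheh-r5 (0.721), all with overlapping groups. Akh1 and Akh2 themselves had an r of only 0.247, while Akh1 and Acp had an r of 0.883. Over all 6 libraries the receptor had an r of −0.263 to Akh1 and −0.359 to Akh2. These values pool the 2 groups. In summed FPKM the dsEGFP libraries had the same order in Akh1 and Akhr, and both genes were highest in replicate 2 of either group. For Akh1 this depended on how its reads were assigned to transcripts. With one length, Akh1 stood at 3.06, 2.39 and 2.70 FPKM in the 3 dsTcAMPKα libraries. Replicate 2 was then the lowest of that group in Akh1, but the highest in Akhr at 70.8 FPKM. In the dsEGFP group, Akh1 was then level at 5.21 FPKM in replicates 1 and 2.

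Markers of the tissues that make and receive AKH were measured beside these results. No marker of the corpora cardiaca was available apart from the hormones. Of 16 neural symbols looked for, 4 were present. Their summed level was 73.5 to 101 FPKM in the dsEGFP group and 126 to 148 FPKM in the dsTcAMPKα group, without overlap. Taken singly, 3 of them did not overlap and Cac did. Such an order, with every dsTcAMPKα library on top, was found in 31.2% of all tested genes. None of the 4 was called, and their median log2 fold change was 0.60, or 0.26 with the length correction. The 6 fat body genes with a symbol, all storage hexamerins, ranged from 5386 to 13600 FPKM in sum in the dsEGFP group and from 3278 to 15520 FPKM in the dsTcAMPKα group, with overlap and none called. The median log2 fold change of the fat body genes was −0.21, with 4 of the 6 below 0. It was −0.63 with the length correction, with 5 of the 6 below 0, and 0.31 with quantile scaling. The part of the neural and fat body genes in the Akh1 and Akhr levels was not tested.

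**Figure D5:**
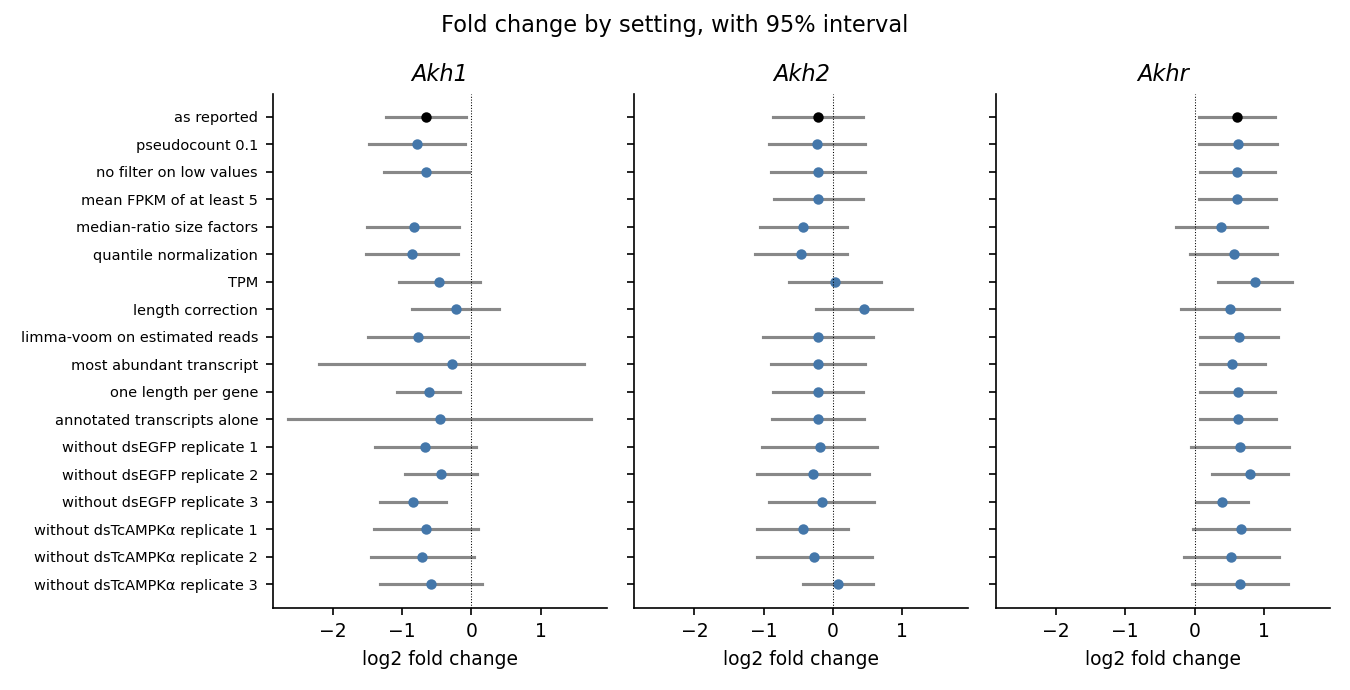
Log2 fold change (dsTcAMPKα minus dsEGFP) of Akh1, Akh2 and Akhr as reported (black) and under 17 alternative settings (blue), with 95% intervals as horizontal lines. Akh1 is below 0 wherever it was tested and Akhr above 0 throughout, while Akh2 lies on both sides of 0; Akh1 has no value under the filter at a mean of 5 FPKM.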

How the data were processed

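Reads were aligned by the authors to Tcas5.2 using HISAT2, and StringTie assembled the transcripts (versions are not given in the sources used here). For each transcript and library the authors deposited the FPKM, which accounts for transcript length and sequencing depth, and the coverage, a signal of reads per base without scaling between libraries. The study's own test needs read counts, so limma was used on a log scale.

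FPKM was added up by gene name. Genes with a mean of at least 1 FPKM entered limma 3.58.1 (R 4.3.3, with lmFit, then eBayes using a variance trend) as log2(FPKM + 1), with p-values adjusted over all 10981 of them. The test was checked on simulated data. Reads were estimated as coverage times length over a read length of 150 nt. Ratios within libraries were compared by exact permutation tests (Python 3.11.15, scipy 1.17.1). The length correction removed a lowess trend (span 0.4) on transcript length from each library. Samples are separate pools of larvae, replicates were numbered in accession order, and p-values measure only the spread between 3 pools per group. Precision is limited by that number and, for Akh1, Akh2 and Acp, by few reads. No counting error was computed for the estimated reads.

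The genes and lists were chosen with earlier results of these data known. Named are the 3 AKH genes, Snf1a, Acp, every called gene of the lists and the 3 symbol-carrying genes most correlated with each AKH gene, of which 1 is not reported here. The hormone genes other than these were named to complete their list. Lists by term came from the study's annotation table, of which a shortened copy was used, so members may be missing. In the RefSeq gene table (assembly icTriCast1.1, used for names only) 2 of the 3 members matched by symbol. The alternatives changed the pseudocount (0.1), the filter (none, or a mean of 5 FPKM), the scaling (median-ratio size factors, quantile, TPM), the test (limma-voom, from estimated reads), the transcripts summed, the length correction, the number of length neighbours (200 and 1000) and the libraries included. One length per gene and annotated transcripts alone were chosen after seeing the data.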

Additional observations from a re-analysis of the deposited data

How the results depend on the processing

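Akh1 stayed below 0 in 16 of 16 alternatives (log2 fold change −0.86 to −0.23) and Akhr above 0 in 17 of 17 (0.39 to 0.88), and neither was called in any. Akh2 turned positive with TPM scaling (0.0287), with the length correction (0.44) and without dsTcAMPKα replicate 3 (0.0677). Leaving out 1 library at a time gave −0.84 to −0.44 for Akh1, −0.44 to 0.0677 for Akh2 and 0.39 to 0.79 for Akhr. With TPM the Akhr adjusted p of limma was 0.0303, still at a log2 fold change under 1. Acp lost its call in 7 of 16 alternatives, limma-voom among them (−3.82, adjusted p = 0.05, not below the threshold).

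The log2 difference of Akh1 to Akh2 was 0.053 and that of Akh1 to Akhr −0.74 when only the most abundant transcript was used, which takes an Akh1 transcript near 0 in replicate 2 of both groups. Leaving out 1 library gave −0.85 to −0.25 and −1.49 to −1.37. The hormone sum to receptor ratio ranged from −1.25 to −0.78.

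Called genes numbered 747 as reported, 1619 with TPM (1400 higher and 219 lower), 121 with the length correction and 491 with the most abundant transcript. The split was 449 higher and 298 lower as reported, 163 and 448 with size factors, 234 and 322 with quantile scaling. Median-ratio scaling moved the median of all genes to −0.01 and Akhr to 0.39. Leaving out 1 library gave 0 to 1198 called genes, with 77 without dsEGFP replicate 2, 1198 without dsEGFP replicate 3, 34 without dsTcAMPKα replicate 3 and 0 by limma without dsTcAMPKα replicate 1 or 2, where 2909 and 2957 genes had an unadjusted p under 0.05. The causes were not tested. No paired analysis was possible because the labels give no replicate numbers.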
